A study of Mus musculus with 7 samples.

Results

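The enzymes that make or remove deoxynucleotides, the building blocks of DNA, were examined in mouse haematopoietic stem cells (HSCs) that had lost Mettl3. The 9 genes Rrm1, Rrm2, Rrm2b, Tk1, Dck, Tyms, Dut, Dctpp1 and Samhd1 were taken by symbol from a table of 23038 genes, and each had 1 row. The mutant group was Mx1-cre; Mettl3 fl/fl (4 libraries) and the control group was Cre-negative littermates (3 libraries), all on the C57BL/6 strain. Every mouse of both groups had been injected with pIpC, a double-stranded RNA analogue, in 5 doses of 10 µg each. All were killed 10 days after the last dose. The Mx1 promoter answers to interferon, so pIpC switches on Cre in blood cells and in other interferon-responsive tissues. HSCs were sorted from adult bone marrow, 150 cells per library, by absence of lineage markers and CD48 and presence of Sca1, cKit and CD150, and RNA was read by Smart-seq2, a full-length cDNA method for small cell numbers that does not mark strand.

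Deoxynucleotides reach the replication fork by a de novo route and a salvage route. In the de novo route, ribonucleotide reductase removes an oxygen from ribonucleotides. Its large subunit, RRM1, pairs with RRM2, a small subunit that accumulates in S phase, or with RRM2B, a small subunit induced by p53 that also serves resting cells. In the salvage route, kinases such as thymidine kinase 1 (TK1) and deoxycytidine kinase (DCK) trap imported or recycled deoxynucleosides. Thymidylate synthase (TYMS) makes dTMP from dUMP, DUT and DCTPP1 hydrolyse dUTP and modified dCTP before they enter DNA, and SAMHD1 degrades deoxynucleotides in cells that are not replicating. Most adult HSCs are quiescent, a state in which need for deoxynucleotides is low.

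The table holds 1 value per gene and group in RPKM (reads scaled to gene length and to library size). Comparisons between genes on this scale rest on the gene lengths used, which are not given. No value per animal could be read from it, so no SD or p-value is given, and whether a difference exceeds the spread between animals could not be assessed. Of the 23038 genes, 8499 sat in both groups at an offset, a small constant divided by gene length, and 14539 had reads. The column sums were 499616 RPKM in mutants and 503762 RPKM in controls. Mettl3, the deleted gene, was at 9.60 RPKM in mutants and 49.8 RPKM in controls, 19.3% of the control level. The offset of a gene of 1 kb was 0.0349 RPKM in mutants and 0.0414 RPKM in controls; if it stands for 1 read, the harmonic mean library size was 28.7 M reads in mutants and 24.1 M reads in controls (M, megareads). On that reading and with GENCODE transcript lengths, the enzyme with the fewest reads, Rrm2b, had about 378 reads per library in mutants and 304 in controls, and Rrm1 had the most, about 10126 and 8796. HSC markers fixed for the check were present: Slamf1, which encodes the sorting antigen CD150, was at 27.1 RPKM in mutants and 25.9 RPKM in controls. Cd48, the antigen used for exclusion, was at 4.04 and 5.33 RPKM in mutants and controls. Of the 10 HSC markers, 4 were higher and 6 lower in mutants.

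The promoters of 4 of the enzymes are shown because their transcripts span the range of differences described next: Tk1 and Rrm2 stood far above the control value in mutants, Rrm1 (the partner of Rrm2) lay beside it and Samhd1 lay farthest below it. Each stretch runs from 250 bases before to 50 bases after a RefSeq transcript start on GRCm38.p6, 5′ to 3′ in the direction of transcription. For Tk1 this start lies inside the annotated gene. Capitals mark matches to CCAAT (the letters bound by NF-Y) and to the GC box GGGCGG (bound by factors of the Sp1 family), on either strand.
Tk1 (chr11:117825965-117826264, minus strand): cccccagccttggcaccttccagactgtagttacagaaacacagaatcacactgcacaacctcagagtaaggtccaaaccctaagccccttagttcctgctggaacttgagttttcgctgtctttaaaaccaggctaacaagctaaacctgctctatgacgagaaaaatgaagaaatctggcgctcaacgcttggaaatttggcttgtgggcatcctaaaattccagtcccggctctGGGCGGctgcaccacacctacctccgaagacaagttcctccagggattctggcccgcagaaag
Rrm2 (chr12:24708004-24708303, plus strand): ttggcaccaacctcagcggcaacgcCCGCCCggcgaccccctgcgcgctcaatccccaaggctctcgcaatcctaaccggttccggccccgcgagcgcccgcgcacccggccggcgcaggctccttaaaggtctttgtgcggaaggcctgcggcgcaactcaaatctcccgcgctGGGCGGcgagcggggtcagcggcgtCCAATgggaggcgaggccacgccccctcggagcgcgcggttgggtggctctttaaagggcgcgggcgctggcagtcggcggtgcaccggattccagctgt
Rrm1 (chr7:102441445-102441744, plus strand): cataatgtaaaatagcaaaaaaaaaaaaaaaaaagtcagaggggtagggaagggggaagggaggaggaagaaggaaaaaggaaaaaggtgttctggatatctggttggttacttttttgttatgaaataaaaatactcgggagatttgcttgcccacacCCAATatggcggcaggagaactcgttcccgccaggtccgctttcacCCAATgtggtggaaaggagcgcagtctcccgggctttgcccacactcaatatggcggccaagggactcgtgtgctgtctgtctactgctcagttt
Samhd1 (chr2:157135047-157135346, minus strand): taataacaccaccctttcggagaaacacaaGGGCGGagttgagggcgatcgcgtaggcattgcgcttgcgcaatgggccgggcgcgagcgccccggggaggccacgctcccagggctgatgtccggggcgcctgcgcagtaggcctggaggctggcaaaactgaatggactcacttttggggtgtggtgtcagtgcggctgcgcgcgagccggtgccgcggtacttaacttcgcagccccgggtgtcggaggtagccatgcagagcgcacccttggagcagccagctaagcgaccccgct

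Tk1 and Rrm2 were the 2 enzymes at least 2-fold higher in Mettl3 mutant HSCs, and none of the 9 was 2-fold lower. The 7 others lay between 0.623-fold and 1.25-fold of the control level. Among all 14539 genes with reads, 3.67% were at least 2-fold higher in mutants and 3.47% were lower by as much. The rule was a log2((mutant + 1)/(control + 1)) of at least 1 in size, with no test behind it. Over the 9 enzymes the median of this log2 ratio was 0.16, with 6 higher and 3 lower, against a median of 0.02 over all genes with reads, of which 52.6% were higher. Since Tk1 and Rrm2 had been seen to differ before the enzymes were chosen, these counts describe the set and support nothing further. In RNA from a sorted population, more cells that express a gene and more RNA per cell cannot be told apart.

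**Figure D1:**
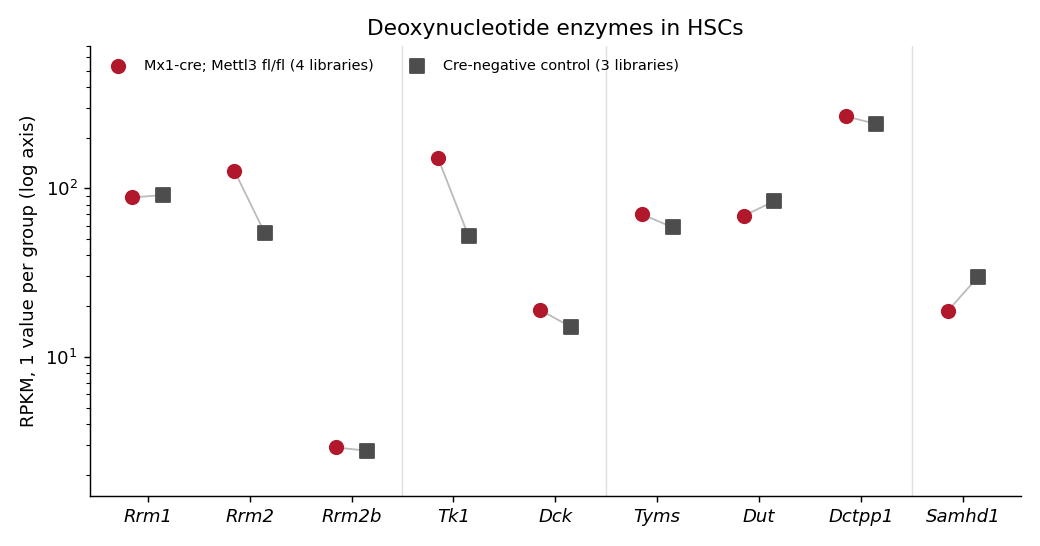
RPKM of the 9 enzymes on a log axis, with 1 value per group: red circles are Mx1-cre; Mettl3 fl/fl and dark squares are Cre-negative controls, and grey lines join the groups. Vertical lines separate the subunits of ribonucleotide reductase, the salvage kinases, the thymidylate and pool-cleaning enzymes, and Samhd1. Tk1 and Rrm2 show the steepest lines, at 151 and 127 RPKM in mutants against 51.8 and 54.1 RPKM in controls.

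The subunits of ribonucleotide reductase did not move as a unit. Rrm2 (NCBI Gene 20135, chromosome 12, 24708254 to 24714146), the S-phase small subunit, was at 127 RPKM in mutants and 54.1 RPKM in controls, 2.35-fold higher with a log2 ratio of 1.22. Rrm1 (NCBI Gene 20133, chromosome 7, 102441695 to 102469771), the large subunit that every form of the enzyme needs, was at 88.3 RPKM in mutants and 91.2 RPKM in controls, a log2 ratio of -0.05. On the RPKM scale, Rrm2 per Rrm1 was thus 1.44 in mutants and 0.594 in controls. As the gene lengths used are not given, which subunit transcript was in excess within a group cannot be judged. Rrm2b (NCBI Gene 382985, chromosome 15, 37923952 to 37961119), the p53-inducible small subunit, was the lowest of the 9 in both groups, at 2.90 RPKM in mutants and 2.77 RPKM in controls. Rrm2 exceeded Rrm2b 44.0-fold in mutants and 19.5-fold in controls, while the Rrm1 to Rrm2b ratio was 30.5 and 32.9 in mutants and controls. Trp53, the gene of the regulator that induces Rrm2b, was at 206 RPKM in mutants and 228 RPKM in controls. A predicted antisense gene, Gm49085, shares 260 exon bases with Rrm2b on the other strand, and without strand its reads cannot be told from those of Rrm2b.

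The salvage kinases also differed from each other. Tk1 (NCBI Gene 21877, chromosome 11, 117815519 to 117826087), which phosphorylates thymidine and is made mainly by cycling cells, was at 151 RPKM in mutants and 51.8 RPKM in controls. It was 2.91-fold higher with a log2 ratio of 1.52, the farthest apart of the 9, and 99.2% of the genes with reads had a lower ratio. Dck (NCBI Gene 13178, chromosome 5, 88765013 to 88783277), which phosphorylates deoxycytidine, deoxyadenosine and deoxyguanosine and varies less through the cell cycle, was at 19.0 RPKM in mutants and 15.1 RPKM in controls, a log2 ratio of 0.31. Tk1 exceeded Dck 7.95-fold in mutants and 3.43-fold in controls. Tk1 shares 83 exon bases with Afmid, a gene on the other strand that was at 2.52 RPKM in mutants and 3.23 RPKM in controls, far below Tk1 itself.

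Both Tk1 and Tyms end in dTMP, the first from salvaged thymidine and the other from dUMP. Tyms (NCBI Gene 22171, chromosome 5, 30038546 to 30073645) was at 70.1 RPKM in mutants and 58.7 RPKM in controls, 1.19-fold higher. On the RPKM scale, Tk1 to Tyms was 2.15 to 1 in mutants and 0.883 to 1 in controls. A processed pseudogene, Tyms-ps, could take reads from Tyms, but its own row was at 0.0698 RPKM in mutants and 0.0434 RPKM in controls.

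**Figure D2:**
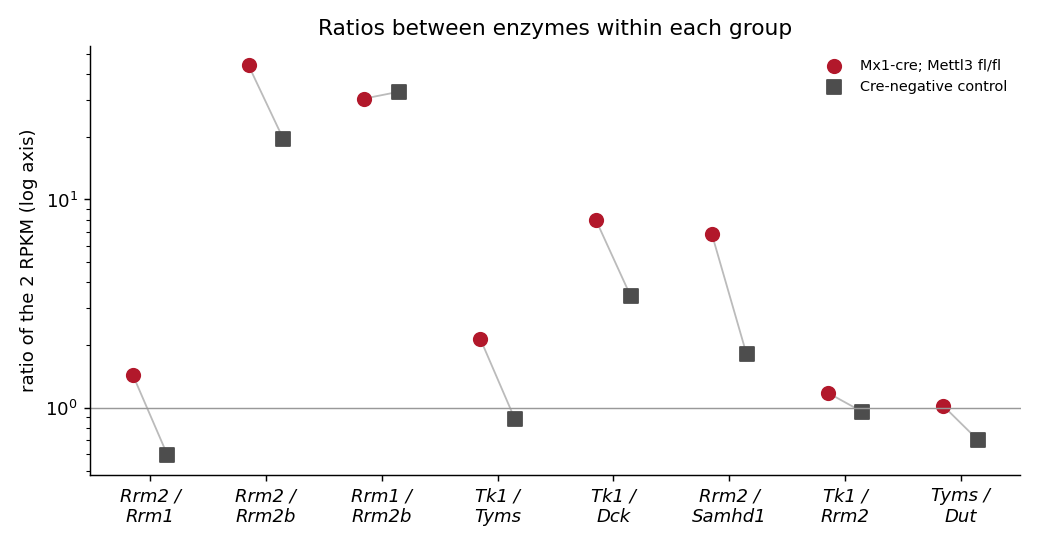
Ratios between pairs of enzymes within each group on a log axis, from RPKM: red circles are mutants, dark squares are controls, and the grey horizontal line marks a ratio of 1. The ratios Rrm2 to Rrm1, Tk1 to Tyms and Tk1 to Rrm2 lie above 1 in mutants (1.44, 2.15 and 1.18) and below 1 in controls (0.594, 0.883 and 0.957). With no spread, the side of 1 on which a ratio as near as 0.957 lies cannot be judged.

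Of the pool-cleaning enzymes, Dctpp1 (NCBI Gene 66422, chromosome 7, 127256959 to 127260667), a dCTP pyrophosphatase that favours modified cytosine nucleotides, had the highest level of the 9 in both groups, 268 RPKM in mutants and 241 RPKM in controls. It ranked 307th of 23038 genes in mutants and 377th in controls. Dut (NCBI Gene 110074, chromosome 2, 125247248 to 125259049), which turns dUTP into the dUMP that thymidylate synthase uses, was at 68.7 RPKM in mutants and 84.0 RPKM in controls, 0.818-fold. Tyms and Dut, consecutive steps of 1 route, lay on opposite sides of their control values, so that Tyms per Dut was 1.02 in mutants and 0.699 in controls.

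Samhd1 (NCBI Gene 56045, chromosome 2, 157097534 to 157135096), the deoxynucleotide triphosphohydrolase, was the enzyme with the lowest ratio. It was at 18.7 RPKM in mutants and 29.9 RPKM in controls, 62.3% of the control level, with a log2 ratio of -0.65, and 8.48% of the genes with reads had a lower ratio. It passed a 1.5-fold rule of size but not the 2-fold rule. Rrm2 exceeded Samhd1 6.83-fold in mutants and 1.81-fold in controls. Samhd1 is abundant in macrophages and other myeloid cells. Of the 12 macrophage and monocyte markers with reads, 9 were higher in mutants, and 2 were at least 2-fold higher. Cd68, which encodes a lysosomal membrane protein, was at 108 RPKM in mutants and 26.4 RPKM in controls, and Hmox1, haem oxygenase 1, was at 10.4 RPKM in mutants and 2.03 RPKM in controls. Without a pseudocount, low genes of the list, named after their values were seen, also passed 2-fold. Cd14, C1qa, Vcam1, Cd5l and Fcgr1 were higher in mutants, and C1qb was lower. C1qa was at 1.38 RPKM in mutants and 0.212 RPKM in controls, and C1qb at 0.904 RPKM in mutants and 1.87 RPKM in controls. The summed level of the list was 412 RPKM in mutants and 437 RPKM in controls, most of it Lyz2 (289 and 406 RPKM in mutants and controls), and Csf1r and Emr1 were at the offset in both groups. Their part in the Samhd1 value was not tested.

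**Figure D3:**
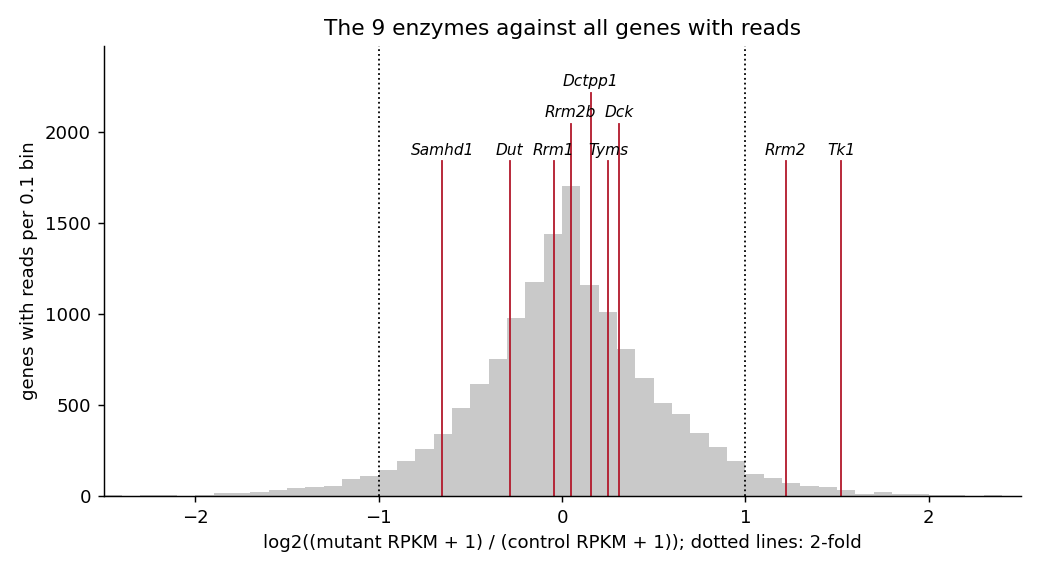
Histogram of log2((mutant RPKM + 1)/(control RPKM + 1)) for the 14539 genes with reads, in bins of 0.1, with the x axis cut at 2.5 on either side. Red lines mark the 9 enzymes and dotted lines mark 2-fold. Rrm2 (1.22) and Tk1 (1.52) lie beyond the right dotted line, and the other 7 lie in the body of the distribution between -0.65 and 0.31.

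Set in order of RPKM, Rrm2 and Tk1 stood nearer the top in mutants than in controls. In mutants the order was Dctpp1, Tk1, Rrm2, Rrm1, Tyms, Dut, Dck, Samhd1 and Rrm2b. In controls it was Dctpp1, Rrm1, Dut, Tyms, Rrm2, Tk1, Samhd1, Dck and Rrm2b. Neighbours such as Tyms and Dut in mutants (70.1 and 68.7 RPKM), Dck and Samhd1 in mutants (19.0 and 18.7 RPKM) or Rrm2 and Tk1 in controls (54.1 and 51.8 RPKM) lay close, and with no spread their order cannot be judged. The sum over the 9 enzymes was 814 RPKM in mutants and 628 RPKM in controls. Tk1 and Rrm2 alone contributed 172 RPKM of the net difference of 185 RPKM.

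The rest of the deoxynucleotide pathway gave no such gap in most steps. Of 21 kinases and deaminases of nucleosides and nucleotides with reads, 13 were higher and 8 lower in mutants, none by 2-fold, and the median log2 ratio was 0.10. This list holds nucleotide kinases such as Guk1 and Nme1 and ribonucleoside kinases such as Uck1. Its counts therefore do not describe deoxynucleoside salvage alone. With a pseudocount of 0.1 RPKM or none, 2 low genes passed 2-fold: Cda, cytidine deaminase, at 1.32 RPKM in mutants and 0.423 RPKM in controls, and Ak4, a mitochondrial adenylate kinase, at 0.955 RPKM in mutants and 2.01 RPKM in controls. Dguok, the mitochondrial deoxyguanosine kinase, was at 78.2 RPKM in mutants and 128 RPKM in controls. Guk1, guanylate kinase, was at 311 RPKM in mutants and 201 RPKM in controls. The folate cycle, which carries the carbon unit that thymidylate synthase uses, had 8 of 14 genes higher and 6 lower in mutants, a median log2 ratio of 0.09 and 1 gene at least 2-fold apart. That gene, the mitochondrial folate enzyme Mthfd2, was at 19.3 RPKM in mutants and 6.97 RPKM in controls. Ggh, which trims folate polyglutamates, was at 47.6 RPKM in mutants and 78.0 RPKM in controls.

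Enzymes that remove nucleotides or clean the pool had 11 of 18 genes higher and 7 lower, a median of 0.03 but a mean of -0.01. The 2 genes at least 2-fold apart, both lower, act on bases and nucleosides: Upp1, uridine phosphorylase, was at 19.0 RPKM in mutants and 63.6 RPKM in controls, and Xdh, xanthine dehydrogenase (named after its value was seen), was at 1.12 RPKM in mutants and 5.63 RPKM in controls. Nt5c, a 5′-nucleotidase that dephosphorylates deoxynucleotides in the cytosol, was at 284 RPKM in mutants and 152 RPKM in controls. Among the 9 electron donors of ribonucleotide reductase, 4 were higher and 5 lower, none by 2-fold, with a median of -0.12 and a mean of 0.04. Thioredoxin reductase 1, Txnrd1, was at 48.7 RPKM in mutants and 27.8 RPKM in controls, and glutathione reductase, Gsr, at 84.6 RPKM in mutants and 60.4 RPKM in controls.

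Of 7 transporters of nucleosides and nucleotides, 5 were higher and 2 lower, with a median of 0.11. The pyrimidine nucleotide carrier of mitochondria, Slc25a33, was at 34.8 RPKM in mutants and 15.8 RPKM in controls, the 1 transporter past 2-fold. The routes that make ribonucleotides, the substrates of ribonucleotide reductase, had no gene 2-fold apart. De novo pyrimidine synthesis had 2 of 5 genes higher and 3 lower, a median of -0.24 and a mean of 0.03. Its last enzyme of UMP synthesis, Umps, was at 167 RPKM in mutants and 91.4 RPKM in controls, and its first, Cad, was at 7.96 RPKM in mutants and 12.1 RPKM in controls. De novo and salvage purine synthesis had 6 of 15 genes higher and 9 lower, a median of -0.04 and a mean of 0.0016. Gart was at 109 RPKM in mutants and 68.0 RPKM in controls, and Adssl1, an adenylosuccinate synthase, at 54.4 RPKM in mutants and 105 RPKM in controls.

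Genes of the cell cycle gave a frame for Tk1 and Rrm2, both of which are known as S-phase transcripts under E2F control. The replication fork genes, which share that timing, had 10 of 28 members higher and 18 lower in mutants, none by 2-fold, and a median log2 ratio of -0.10. Fen1, the flap endonuclease, was at 93.1 RPKM in mutants and 51.0 RPKM in controls, whereas Pold1, the catalytic subunit of DNA polymerase delta, was at 40.0 RPKM in mutants and 74.7 RPKM in controls. All 15 mitosis genes were above their control value, and their median was 0.62. Bub1, a spindle checkpoint kinase, was at 14.6 RPKM in mutants and 6.44 RPKM in controls and was the 1 of them past 2-fold. Cenpa, the centromeric histone, was at 128 RPKM in mutants and 68.2 RPKM in controls. Of these 43 genes, none had a ratio as high as that of Rrm2 or Tk1. Since Tk1 and Rrm2 had been seen to differ beforehand, this ranking is description only. Among all genes with reads, 298 (Rrm2 included) had a ratio at least that of Rrm2. The part of cycling cells in the Tk1 and Rrm2 values was not tested.

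E2F factors and their partners had 7 of 13 genes higher and 6 lower, and a median of 0.03. E2f1, an activator of S-phase genes, was at 14.1 RPKM in mutants and 4.89 RPKM in controls, 2.87-fold higher. Its dimer partner Tfdp1 was at 80.6 RPKM in mutants and 60.9 RPKM in controls. Without a pseudocount, the low genes E2f7 and Rb1, named after their values were seen, also passed 2-fold. E2f7 was at 1.97 RPKM in mutants and 0.942 RPKM in controls, and Rb1 at 1.95 RPKM in mutants and 4.14 RPKM in controls. Regulators of turnover and of the checkpoint had 9 of 11 genes higher and 2 lower, none past 2-fold, and a median of 0.28. Ccnf, the F-box protein cyclin F that marks RRM2 for degradation, was at 14.7 RPKM in mutants and 9.29 RPKM in controls. Cdk1, the mitotic kinase, was at 88.9 RPKM in mutants and 56.4 RPKM in controls.

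**Figure D4:**
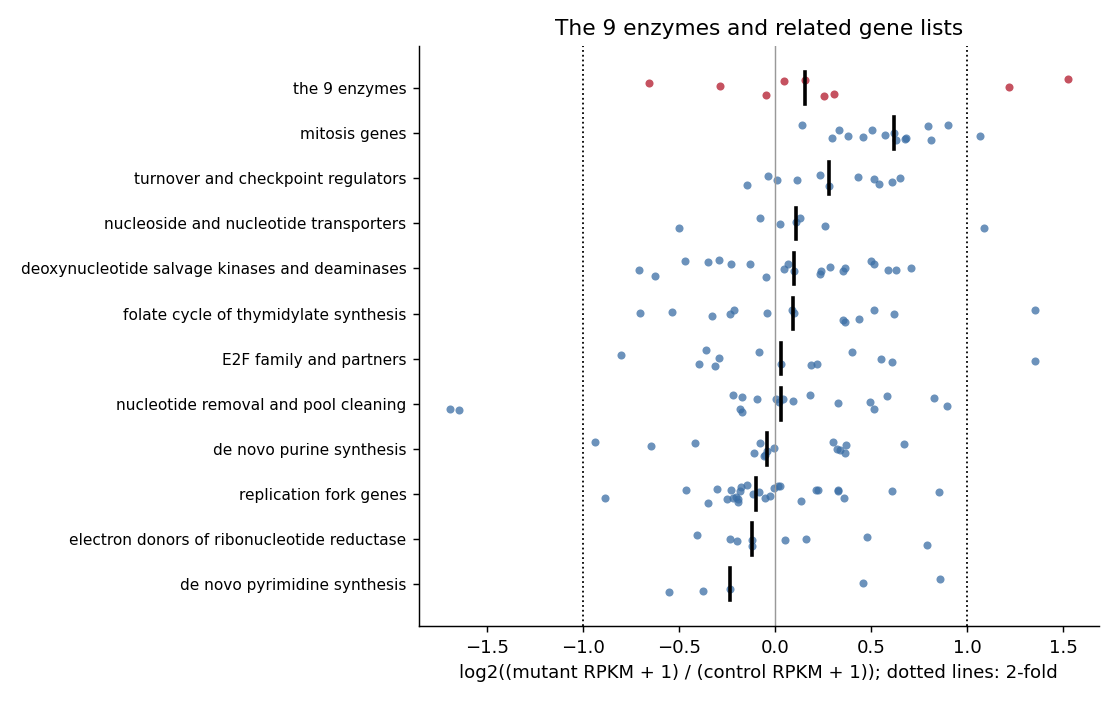
Log2((mutant RPKM + 1)/(control RPKM + 1)) of each gene with reads in the 9 enzymes (red) and in 11 related lists (blue), with list medians as black bars and 2-fold as dotted lines. The mitosis genes all lie right of 0 with a median of 0.62, the replication fork genes straddle 0 with a median of -0.10, and Tk1 and Rrm2 lie right of every gene of both lists.

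Markers of other cells went both ways. Of 7 granulocyte and myeloid progenitor markers with reads, 3 were higher and 4 lower, and 4 were at least 2-fold apart. Mpo was higher, at 1.43 RPKM in mutants and 0.0492 RPKM in controls. The other 3 were lower: Camp was at 0.562 RPKM in mutants and 6.37 RPKM in controls, Ms4a3 at 0.0691 and 1.85 RPKM in mutants and controls, and S100a9 at 0.0710 and 1.99 RPKM in mutants and controls. The list summed to 376 RPKM in mutants and 293 RPKM in controls, nearly all of it Prtn3, and Ctsg, Ngp and Ltf were at the offset in both groups. Of 7 erythroid markers with reads, 3 were higher and 4 lower. Hbb-b1, a globin gene whose reads may be shared with a near-identical copy, was the 1 at least 2-fold apart, at 7.79 RPKM in mutants and 2.30 RPKM in controls. The list summed to 1096 RPKM in mutants and 1624 RPKM in controls, most of it Car2, with Hba-a1 and Car1 among those at the offset. Of 4 lymphoid markers with reads, 2 were higher and 2 lower, summing to 204 RPKM in mutants and 275 RPKM in controls. The lymphoid markers Cd3e, Cd3g, Cd79a, Il7r, Dntt and Rag1 were at the offset in both groups.

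In the promoters printed above and in those of Tyms, Dut, Dck and Dctpp1, 4 motifs were sought on both strands. RefSeq promoter sequences were found for 8 of the 9 enzymes. That of Dut begins at base 125247265 of chromosome 2, inside the gene, which begins at 125247248 on the plus strand. Bases before the first start of Dut were therefore not searched. The E2F letters TTTCCCGC, TTTCGCGC, TTTGCCGC and TTTGGCGC matched in 0 of the 8, and in 2.26% of 32851 mouse promoters of the same length. CCAAT matched in 3 of the 8, those of Rrm2, Rrm1 and Dctpp1, against 37.4% of all promoters. Rrm2 had 1 match, 50 bases before the start, and Rrm1 had 2, at 91 and 45 bases before it, so this motif was in both the subunit that was higher in mutants and the one that was not. The GC box GGGCGG matched in 7 of the 8, all but Rrm1, against 35.7% of all promoters. Tk1 had 1 such match, 13 bases before the start used and thus inside the annotated gene, and Dck had the most, 6. The CHR element, spelled TTTGAA or TTCGAA, matched in Dck only of the 8, and in 19.2% of all promoters. Within the bases searched, none of the 4 motifs was present in both Tk1 and Rrm2 and absent from the other 6.

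**Figure D5:**
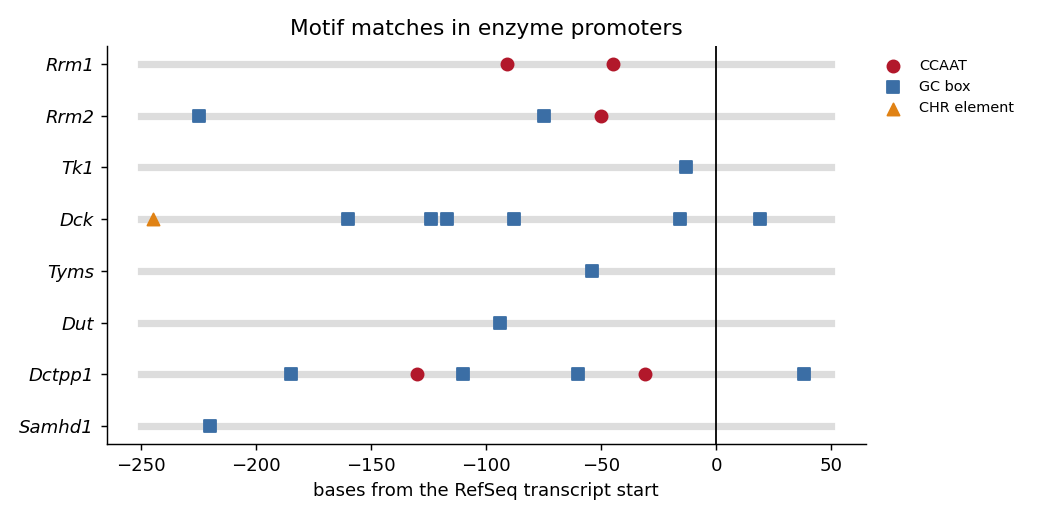
Positions of motif matches in 8 enzyme promoters, in bases from the RefSeq transcript start (black line), with circles for CCAAT, squares for the GC box and a triangle for the CHR element; grey bars span the 300 bases searched. Rrm1 and Rrm2 both carry CCAAT within 100 bases before the start. In the bases searched, Tk1 carries a GC box only, and its start lies inside the annotated gene.

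Of the 6607 genes that reached 10 RPKM in either group, 3.36% were at least 2-fold higher in mutants. A promoter sequence was at hand for 5334 of them. With E2F letters in it the share was 10 of 296 genes (3.38%), and without them it was 167 of 5038 (3.31%). Their median log2 ratios were 0.04 with the letters and 0.02 without. Only these exact spellings were sought, and they matched neither Tk1 nor Rrm2. The split therefore does not separate genes under E2F control from others, and no conclusion is drawn from it.

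METTL3 places m6A on mRNA within a short consensus, of which GGACT is 1 common spelling. All 9 enzymes carried these letters in the GENCODE transcript used for each (the longest principal coding transcript on GRCm38), and 91.6% of 12257 expressed genes with a coding transcript did. The density ran from 0.316 per kb in Tyms to 2.96 per kb in Dctpp1, around a median of 1.05 per kb over these genes. Tk1 had 2 matches, none of them in coding sequence, and Rrm2 had 4, 2 of them coding and 2 in the 3′ untranslated region. Rrm1 had 7 and Samhd1 had 5, and the density of these 4 lay between 1.27 and 1.82 per kb. For the 3 of these 4 with a coding match, the coding match nearest the stop codon is shown with 8 bases on either side, GGACT in capitals. Whether any of them is methylated in HSCs was not measured.
Rrm2 (chr12:24709064-24709084, plus strand): ctccttttGGACTgccgagga
Rrm1 (chr7:102461643-102461663, plus strand): gacctgtgGGACTggaagcct
Samhd1 (chr2:157101727-157101747, minus strand): gcgctcagGGACTtcaccaag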

How the data were processed

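Per the file headers, the authors deposited RPKM, with 1 value for each gene in each group. The submitters' processing notes name mm10, Picard and edgeR; the aligner, annotation and way of combining libraries are not given in the sources used. A limma fit had been foreseen for values per library, which the table lacks, so differences are sizes without p-values. The enzymes and lists were chosen with earlier results of these data known. Log2((mutant + 1)/(control + 1)) was computed with Python 3.11.15, pandas 2.3.3 and numpy 2.4.6 (figures: matplotlib 3.10.9). The pseudocount of 1 RPKM understates changes of low genes; printed folds are ratios of deposited RPKM. Genes at the constant mutant/control ratio of 0.841 (relative tolerance 1e-06) were taken as lacking reads and left out of counts. From each related list the text names the 2 genes farthest apart among those reaching 10 RPKM in 1 group, except for an item that is not reported here. Nt5c3b is listed as Nt5c3l, Dnph1 as BC048355 and Adgre1 as Emr1; Ak6 and Ly6g were not analysed here. Gene coordinates and promoters are from RefSeq (GRCm38.p6) and transcripts from GENCODE M21, both of the assembly that mm10 names. Alternatives were other pseudocounts, rescaling, a minimum RPKM, a 1.5-fold rule, the mean for the median, and subtraction of the offset.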

Additional observations from a re-analysis of the deposited data

How the results depend on the processing

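The counts of enzymes (6 higher, 2 at least 2-fold higher) held under the pseudocount of 0.1 RPKM, no pseudocount, both rescalings, the minimum of 1 RPKM and the subtraction of the offset, which was chosen after seeing the data. Log2 ratios of Tk1 ran from 1.498 to 1.54, of Rrm2 from 1.195 to 1.23 and of Samhd1 from -0.68 to -0.64; the median over the enzymes ran from 0.13 to 0.17, and their mean was 0.28. With a 1.5-fold rule, 1 enzyme (Samhd1) was lower, in place of 0, and 15 counts of 2-fold genes in the related lists grew from 0 or by over 1.5 times, the mitosis genes to 8 higher in place of 1. Of the same list counts, 4 grew as much with the pseudocount of 0.1 and 5 with none. Over all genes, that rule gave 3399 genes apart (1883 higher, 1516 lower), the pseudocount of 0.1 gave 2855 (1508 and 1347) and no pseudocount gave 3655 (1981 and 1674), in place of 1038 (534 and 504). No paired analysis was possible because the table gives 1 value per group without replicate numbers, and for the same reason leaving out replicates was not run. If the offset is 1 read, the enzyme with the fewest reads had about 304 per library in controls; the spread between animals is unknown.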
